A study of Mus musculus with 22 samples.

Results

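Pre-mRNA splicing factors were described in β-cells sorted from mouse islets, in the presence or near absence of the other endocrine cells and before or after a meal. The members were chosen by symbol and by count: they were the genes whose symbols match a fixed pattern of splicing factor families (Srsf, Hnrnp, Rbm, Snrnp, Snrp, Sf3a, Sf3b, Prpf, Luc7l, U2af, Tra2, Ddx39, Clk, Srek1, Srrm and Sf1) and that had 10 or more counts in at least 5 libraries. Of 127 matching rows, 121 met the count minimum, out of 52327 rows of the table. The count minimum was selected on the levels themselves, so that the members are expressed in these cells is no finding. The member closest to it was Rbm11, with 10 or more counts in 12 libraries, followed by Rbm41 in 14 and Rbm4 in 21. Just outside were Rbm24 and U2af1l4, each with 1 such library, and Rbm38, Rbm42, Rbm44 and Rbm46 with 0. All 121 members passed the expression filter of the test, and every member had a library with 10 or more counts in each of the 4 groups.

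The libraries came from male mice of mixed background, 3 months old, whose genotype was GluDTR+, SstDTR htz and PpyDTR htz in every group. These alleles place the diphtheria toxin receptor in glucagon, somatostatin and pancreatic polypeptide cells, so that diphtheria toxin (DT) is aimed at these cells and spares β-cells. DT and control mice were killed 1 month after ablation, either after an 8-hour fast or after such a fast and 2 h of refeeding. What the control mice were injected with is not given in the sources used here. The groups were refed DT (n = 6), refed control (n = 5), fasted DT (n = 6) and fasted control (n = 5), with 1 library per mouse and a different mouse number for each.

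A pre-mRNA carries introns that the spliceosome removes. The spliceosome is built from small nuclear ribonucleoproteins (snRNPs), which pair with the splice sites and the branch point, and from proteins that join it for single steps. SR proteins bind exons and mostly favour their inclusion, hnRNP proteins more often act as silencers, and CLK kinases phosphorylate SR proteins and so set where they are in the nucleus. Many of these factors regulate their own level by splicing a poison exon or retained intron into their transcript. β-cells share part of their splicing programme with neurons, including factors such as Srrm3 and the Elavl and Rbfox families.

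Total counts per library ran from about 16584100 to 24988900. The β-cell label was borne out by Ins1 and Ins2, which held 40.3% to 69.4% of the counts, and by all 10 β-cell markers, which were above 0 in every library. Glucagon (Gcg) had medians of 0.461 CPM in refed DT, 158 CPM in refed control, 0.146 CPM in fasted DT and 77.4 CPM in fasted control mice. Here CPM is the count scaled to the size of the library, with that size adjusted by the TMM factor of the library. Acinar transcripts varied most among other cell types, from 69.9 to 31088 CPM summed over 12 genes. Refed DT mouse 13 stood apart, with the 69.4% insulin share and 3388 CPM of 5 nuclear RNAs (Malat1, Neat1, Meg3, Kcnq1ot1 and Snhg11), against 393 to 1336 CPM in the refed control and fasted control mice and the other refed DT mice, and refed DT mouse 20 had the highest summed level of 8 immune genes, 463 CPM. Numbers of members called over all classes are therefore also given without mice 13 and 20. Call counts by class are from all 22 libraries, and other values without these mice are given for only part of the genes that moved. The TMM factor raised all CPM of mouse 13, whose 10 β-cell markers summed to 1284910 CPM.

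The members together took a small share of the RNA. Their share of the counts had a lowest value of 0.399%, a median of 0.665% and a highest value of 0.730% in refed DT mice, against 0.607%, 0.684%, 0.609%, 0.685% and 0.565% in refed control mice. In fasted mice it ran from 0.597% over 0.681% to 0.753% in DT mice, against 0.533%, 0.562%, 0.605%, 0.548% and 0.560% in control mice. The 0.399% belonged to mouse 13, and the other refed DT mice overlapped the refed control mice. Of the 6 fasted DT mice, the lowest lay just below the highest fasted control mouse, mouse 3. In such bulk libraries, fewer cells of a type and less RNA per cell cannot be told apart.

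Levels between genes were compared as CPM per kb of the longest coding transcript, averaged over the 22 mice. SR proteins had the highest class median, 26.5 CPM per kb over 11 genes, and the 12 factors of the branch point and 3' splice site had 19.1. The 4 CLK kinases had a median of 17.1, the 20 hnRNP genes 16.2, the 19 snRNP proteins 14.1, the 7 SR-related genes 12.9, the 13 PRPF genes 8.35, the 30 RBM genes 6.57 and the 3 LUC7-like genes 5.69 CPM per kb. The most abundant member was Hnrnpa2b1, an RNA-binding protein of nuclear transcripts, at 160 CPM per kb, followed by Hnrnpk at 144 and Srsf5 at 119. Within the SR class the range reached down to 0.658, and Rbm41 was the lowest of all members at 0.152 CPM per kb. Ddx39a was without a length and is not placed. Genes with many near-identical copies can lose or gain reads: 32 members had such a copy elsewhere among the annotated transcripts (at least 95% identity over 200 bases), among them Srsf3, Srsf5, U2af1, Hnrnpk, Hnrnpc, Hnrnpa3, Snrpd1, Snrpa, Snrpg and Snrpn, and their values are uncertain.

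The members differed from other genes in their annotated isoforms, which the rule did not use. A transcript annotated as a target of nonsense-mediated decay was present for 60 of 120 members (50.0%), against 29.0% of 12200 tested genes with a GENCODE M21 coding transcript. A transcript with a retained intron was annotated for 74.2% of the members and for 59.1% of the tested genes. All 7 SR-related genes, all 4 CLK kinases and all 3 LUC7-like genes had a transcript of the first kind, as did 9 of 11 SR genes, but only 5 of 19 snRNP protein genes. The deposited counts are per gene, so that productive and unproductive transcripts of a member are added up in every value here. Exons of 37 members overlapped a gene on the other strand, and whether the authors counted by strand is not given in the sources used here.

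Promoter sequences, 250 bases before the start site, were found for 103 of the members in a RefSeq table of GRCm38.p6. They were searched on both strands for 6 motifs: the cAMP response element TGACGTCA, the E-box CACGTG, the CCAAT box, the ETS motif CCGGAAG, the TATA motif TATAAA and the SP/KLF motif GGGGCGGGG. The ETS motif was in 24.3% of the member promoters, against 13.9% of 10502 promoters of tested genes and 6.91% of all 32851 promoters in the table. The CCAAT box was in 44.7%, 36.3% and 33.8% of these promoters, and the SP/KLF motif in 18.4%, 19.8% and 10.4%. The E-box was in 7.77%, 8.43% and 6.02%, and the TATA motif in 9.71%, 6.34% and 12.4%. The cAMP response element was in 4 member promoters (3.88%), against 2.88% of those of tested genes and 1.55% of all. A match is a string of letters and not a shown binding site.

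The 4 member promoters with a cAMP response element, which the factor CREB binds, are shown as examples, chosen with the refeeding calls known. Of 18 promoters of members called higher after refeeding in both arms 3 held it (Tra2a, Snrpa and Snrpg). Of 6 promoters of members called lower in both arms 0 held it. Clk4, the remaining member with this motif, was called lower after refeeding in DT mice only. Any part of the motif in the refeeding differences was not tested. Srsf7 is shown as the member with the most stable DT difference. Tra2a lies on the minus strand at chr6:49264053-49264302, Snrpa on the minus strand at chr7:27196272-27196521, Snrpg on the plus strand at chr6:86371290-86371539, Clk4 on the plus strand at chr11:51262864-51263113 and Srsf7 on the minus strand at chr17:80207306-80207555. Sequences run 5′ to 3′ towards the start site that was used for each gene. For Tra2a and Srsf7 this site lies inside the gene span given below, so that part of the stretch is within the annotated gene. The cAMP response element of Tra2a lies in that part. Capitals mark the matches to the 6 motifs, with TGACGTCA as the cAMP response element, CCGGAAG as ETS, CACGTG as E-box and TATAAA as TATA, and the CCAAT box as CCAAT or its reverse complement ATTGG.
Tra2a: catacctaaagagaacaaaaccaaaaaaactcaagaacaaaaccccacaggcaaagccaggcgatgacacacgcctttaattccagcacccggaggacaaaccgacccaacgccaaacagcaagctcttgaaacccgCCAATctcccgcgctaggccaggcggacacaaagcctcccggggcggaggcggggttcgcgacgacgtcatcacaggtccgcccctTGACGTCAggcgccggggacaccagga
Snrpa: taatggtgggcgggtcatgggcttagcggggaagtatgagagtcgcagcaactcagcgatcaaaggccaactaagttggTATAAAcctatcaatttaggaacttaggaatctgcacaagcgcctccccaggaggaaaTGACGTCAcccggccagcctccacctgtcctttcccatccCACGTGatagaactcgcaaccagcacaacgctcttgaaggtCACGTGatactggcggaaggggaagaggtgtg
Snrpg: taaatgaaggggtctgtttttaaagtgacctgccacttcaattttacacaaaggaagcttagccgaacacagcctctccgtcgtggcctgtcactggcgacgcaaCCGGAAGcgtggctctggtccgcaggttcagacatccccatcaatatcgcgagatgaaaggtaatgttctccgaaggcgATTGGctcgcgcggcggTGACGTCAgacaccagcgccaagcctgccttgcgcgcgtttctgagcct
Clk4: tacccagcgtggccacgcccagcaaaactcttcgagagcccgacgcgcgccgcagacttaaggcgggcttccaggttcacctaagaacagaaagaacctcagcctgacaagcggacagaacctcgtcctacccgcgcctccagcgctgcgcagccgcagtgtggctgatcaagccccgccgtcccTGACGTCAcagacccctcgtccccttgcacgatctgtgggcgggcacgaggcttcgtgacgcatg
Srsf7: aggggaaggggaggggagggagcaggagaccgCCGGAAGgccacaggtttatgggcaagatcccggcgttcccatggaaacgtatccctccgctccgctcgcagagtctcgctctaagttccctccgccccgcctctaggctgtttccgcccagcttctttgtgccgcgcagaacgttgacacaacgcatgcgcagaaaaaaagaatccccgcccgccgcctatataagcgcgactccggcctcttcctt

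Between DT and control mice, the differences of splicing factors were small and mostly upward. The question was what loss of the neighbouring endocrine cells changes in β-cells. Averaged over both feeding states, 5 members were called at an adjusted p under 0.05 (edgeR quasi-likelihood test with Benjamini-Hochberg adjustment over 14064 genes), and all 5 were higher in DT mice. Among all tested genes 0.206% were called, 0.107% higher. The 5 genes were Srsf7, Ddx39b, Luc7l, Hnrnph1 and Rbm5. Of the members, 98 had a fold change above 0, against 52.4% of tested genes, and the median was 0.14 for members and 0.01 for all tested genes (log2). Of 10 genes known to respond to tissue dissociation and stress, 1 was called in the same comparison, and it was higher in DT mice: Fosb, an immediate early gene, with an average log2 fold change of 1.00 (edgeR adjusted p = 0.0353), 1.13 in refed and 0.88 in fasted mice. It was named after its values were seen, and its part in the result was not tested.

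Srsf7, an SR protein that also takes part in mRNA export (chromosome 17, 80200080 to 80207369), had a lowest value of 160, a median of 171 and a highest value of 192 CPM in refed DT mice, against 137, 136, 110, 133 and 113 CPM in refed control mice. In fasted mice it had 130, 158 and 209 CPM as lowest, median and highest value in DT mice, against 109, 90.4, 127, 114 and 82.7 CPM in control mice. Every DT mouse was above every control mouse of the same feeding state. The average log2 fold change was 0.54 ± 0.09 (SE; edgeR adjusted p = 0.0128). It remained called in all 22 fits that left out 1 library, with 0.50 to 0.58. This was the only member called in every such fit.

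Ddx39b, a helicase that helps the U2 snRNP bind and loads export factors onto mRNA (chromosome 17, 35241746 to 35253707), had 67.9, 73.2 and 76.4 CPM as lowest, median and highest value in refed DT mice, against 54.2, 52.2, 59.7, 58.2 and 54.1 CPM in refed control mice. The fasted DT mice had 56.4, 68.6 and 81.4 CPM, against 53.4, 56.7, 60.4, 48.5 and 58.6 CPM in the fasted control mice. The refed groups did not overlap, and the fasted groups did. The average fold change was 0.33 ± 0.06 (edgeR adjusted p = 0.0267).

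Luc7l, a component of U1 snRNP complexes that takes part in 5' splice site choice (chromosome 17, 26252899 to 26285510), had 67.6, 72.2 and 81.8 CPM in refed DT mice, against 61.3, 72.7, 53.6, 74.8 and 65.2 CPM in refed control mice, which overlapped. In fasted mice it had 66.5, 85.9 and 118 CPM as lowest, median and highest value in DT mice, against 44.7, 46.7, 66.4, 50.6 and 48.2 CPM in control mice. The fasted groups touched without overlap, the highest control being mouse 3 at 66.4 CPM. Its average log2 fold change was 0.48 ± 0.09 (edgeR adjusted p = 0.0353).

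Hnrnph1, an hnRNP that binds runs of guanines near splice sites (chromosome 11, 50375257 to 50386528), had 90.9, 107 and 134 CPM in refed DT mice, against 80.0, 92.2, 79.1, 99.97 and 94.2 CPM in refed control mice. The fasted DT mice had 91.2, 106 and 138 CPM, against 75.4, 81.6, 78.6, 77.0 and 71.4 CPM in the fasted control mice. Only the fasted groups were apart. The average fold change was 0.39 ± 0.08 (edgeR adjusted p = 0.0353). Rbm5, a spliceosomal regulator of alternative exons in apoptosis genes (chromosome 9, 107740495 to 107771007), had 75.7, 81.5 and 91.3 CPM in refed DT mice, against 65.8, 74.9, 71.1, 87.2 and 89.0 CPM in refed control mice, and the refed groups overlapped. Its fasted levels were 74.5, 82.4 and 107 CPM in DT mice, against 53.2, 54.3, 62.8, 60.8 and 48.2 CPM in control mice, with no overlap. The average fold change was 0.35 ± 0.07 (edgeR adjusted p = 0.0463).

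**Figure D1:**
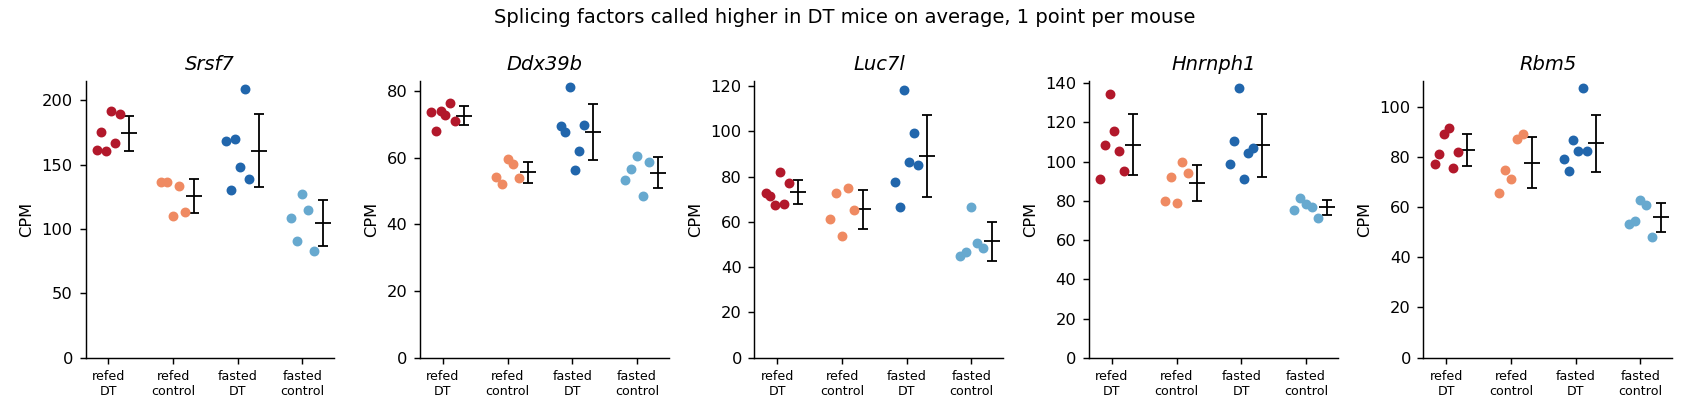
CPM (vertical axis, from 0) of the 5 members called higher in DT mice on average, with 1 point per mouse and a black mark for the mean with SD, for refed DT (n = 6), refed control (n = 5), fasted DT (n = 6) and fasted control (n = 5) mice. Srsf7 is above all controls of the same feeding state in every DT mouse, from 160 CPM in refed and from 130 CPM in fasted DT mice, while the other 4 genes are fully apart in 1 feeding state only.

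Leaving out single libraries, 1 per fit, ended the averaged calls of the other 4 members. Ddx39b lost its call in 7 of 22 fits (without refed DT mouse 16, refed control mouse 12 or 22, fasted DT mouse 6 or 8, or fasted control mouse 1 or 4; highest adjusted p = 0.0740, fold change 0.30 to 0.36). Hnrnph1 kept it only without fasted control mice 2 and 3, fasted DT mice 9 and 11, refed DT mice 13, 14, 15 and 20 or refed control mice 18 and 21 (highest adjusted p = 0.0903). Luc7l kept it only without fasted control mouse 3, fasted DT mice 7 and 11, refed DT mice 13, 14, 15 and 20 or refed control mice 18 and 21 (highest adjusted p = 0.0873), and Rbm5 only without fasted control mouse 3, fasted DT mouse 7 or refed DT mice 13 and 20 (highest adjusted p = 0.126). All of these p-values are edgeR's. Without mice 13 and 20 together 11 members were called, 10 higher and 1 lower, against 0.371% and 0.490% of tested genes, and the lower one was Snrpn (−0.25, edgeR adjusted p = 0.0482), an imprinted Sm protein gene with −0.23 ± 0.06 (edgeR adjusted p = 0.129) in the fit of all libraries.

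In fasted mice 2 members were called, both higher in DT: Luc7l by 0.79 ± 0.13 and Rbm5 by 0.61 ± 0.10 (log2 fold change ± SE, edgeR adjusted p = 0.0390 each). The background was 0.0284% of tested genes called and 0.0213% called higher. Both genes lost the call in 16 of 22 fits, and kept it only without fasted control mouse 3, fasted DT mice 7 and 11 or refed DT mice 13, 14 and 16, with fold changes from 0.68 to 0.90 for Luc7l and from 0.54 to 0.66 for Rbm5 and an adjusted p of at most 0.173. The groups did not overlap for 15 members that were higher and 1 that was lower in DT mice, against 1.10% and 0.775% of tested genes. At an unadjusted p under 0.05 there were 28 higher and 2 lower members, against 5.13% and 3.2% of tested genes. The fold change was above 0 for 98 of 121 members and for 51.9% of tested genes, with medians of 0.16 and 0.01. Without refed DT mice 13 and 20, which belong to neither group, 7 members were called, all 7 higher, against 0.0839% of tested genes.

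The fasted DT difference is given by class as a description, with no test between classes. The class median was 0.63 for the 3 LUC7-like genes, 0.52 for the 7 SR-related genes and 0.40 for the 11 SR genes, and fold changes were above 0 in 3, 7 and 9 of them. The SR value was not shared by all mice. Centred over the 22 mice, the mean log2 CPM of the class was −0.22, −0.30 and −0.39 in fasted DT mice 6, 7 and 8, below the −0.04, 0.07 and 0.10 of fasted control mice 1, 2 and 3, and the group means were 0.02 ± 0.36 in fasted DT mice and −0.24 ± 0.42 in fasted control mice (SD, n = 6 and 5). The class median was 0.29 for the 2 DDX39 helicases, 0.26 for the 4 CLK kinases, 0.16 for RBM, 0.15 for PRPF, 0.13 for branch point and 3' splice site factors, 0.10 for hnRNP and 0.07 for snRNP genes. Below the threshold were Prpf4b, a kinase of the tri-snRNP (0.55 ± 0.10, edgeR adjusted p = 0.0562), Srsf7 (0.62 ± 0.12) and Srek1, an SR-related regulator (0.68 ± 0.14, both 0.0766). Prpf4b had 53.1, 65.97 and 78.6 CPM as lowest, median and highest value in fasted DT mice, against 42.4, 46.9, 52.9, 45.9 and 39.6 CPM in fasted control mice, and the groups did not overlap. Srek1 had 37.7, 41.5 and 58.5 CPM in fasted DT mice, against 24.5, 29.3, 30.1, 33.4 and 25.8 CPM in fasted control mice, also apart. Snrnp70, the core U1 protein, had 77.8, 82.4 and 115 CPM in fasted DT mice, against 37.7, 53.5, 60.5, 55.5 and 41.3 CPM in fasted control mice (0.83 ± 0.19, edgeR adjusted p = 0.181), and all DT values were above all control values. Among SR genes, Srsf4 had the lowest fold change, −0.51 ± 0.22 (edgeR adjusted p = 0.539).

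Nuclear RNA levels differed in the same direction as these members in fasted mice. The summed level of the 5 nuclear RNAs had a lowest value of 1148, a median of 1436 and a highest value of 2130 CPM in fasted DT mice, against a lowest value of 594, a median of 632 and a highest value of 1336 CPM in fasted control mice. All 5 had a fold change above 0, with a median of 0.92 (log2). In refed mice their median fold change was 0.83, and their summed levels were 393, 771 and 3388 CPM as lowest, median and highest value in DT mice, against 442, 621 and 748 CPM in control mice. Of 8 immune genes 7 had a fold change above 0 in fasted mice (median 1.01), with sums of 27.0 to 377.5 CPM in DT mice and of 26.2 to 188 CPM in control mice and the defining gene Ptprc at 0 CPM in 1 of the 5 fasted control libraries. The part of nuclear or immune RNA in the result was not tested.

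In refed mice 0 members were called by edgeR, against 0.0356% of tested genes. At an unadjusted p under 0.05 there were 14 higher and 2 lower members, against 5.63% and 4.39% of tested genes. Without mouse 13 there were 20 higher and 2 lower members (6.39% and 4.23% of tested genes), and without mice 13 and 20 there were 28 higher and 1 lower (7.44% and 5.48%). By limma voom 0 members were called, and by DESeq2 2, Ddx39b and Srsf7, against 0.629% of the genes tested by DESeq2. The edgeR fold change was 0.38 ± 0.09 for Ddx39b (adjusted p = 0.165) and 0.47 ± 0.12 for Srsf7 (adjusted p = 0.182). Without mice 13 and 20, edgeR called 2 members, against 1.22% of tested genes in that fit. They were Ddx39b (0.40, edgeR adjusted p = 0.0350) and Tra2b, an SR-related activator of exons (0.53, edgeR adjusted p = 0.0190), both named after their values were seen. Fold changes were above 0 in 83 members and 49.4% of tested genes, with medians of 0.10 and −0.00. All 7 SR-related genes were above 0 (median 0.35), as in fasted mice, but the median was 0.09 without mouse 13 and 0.12, with 5 of 7 above 0, without mice 13 and 20. Centred over the 22 mice, the mean log2 CPM of the class was 0.86 in mouse 13 and −0.02 to 0.29 in the other refed DT mice, against −0.20 to 0.12 in refed control mice. The median of the 3 LUC7-like genes was 0.22 with all libraries and −0.01 without mouse 13. Of the 4 CLK kinases 3 were below 0 (median −0.04). U2af1, the subunit that reads the 3' splice site, had 39.0, 42.0 and 50.0 CPM in refed DT mice, against 31.9, 38.6, 30.2, 28.2 and 36.7 CPM in refed control mice (0.37 ± 0.11, edgeR adjusted p = 0.255), and was 1 of 3 members whose refed groups did not overlap (0.427% of tested genes higher). The remaining 2 were Srsf7 and Ddx39b. Without mice 13 and 20, 11 members were higher without overlap, against 2.89% of tested genes. Of 8 immune genes 7 had a refed fold change above 0 (median 2.05), with summed levels of 11.99, 22.3 and 463 CPM as lowest, median and highest value in DT mice, against 9.22, 33.9 and 52.6 CPM in control mice. All 4 tested ductal genes were above 0 as well (median 0.81), and the part of these RNAs was not tested.

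**Figure D2:**
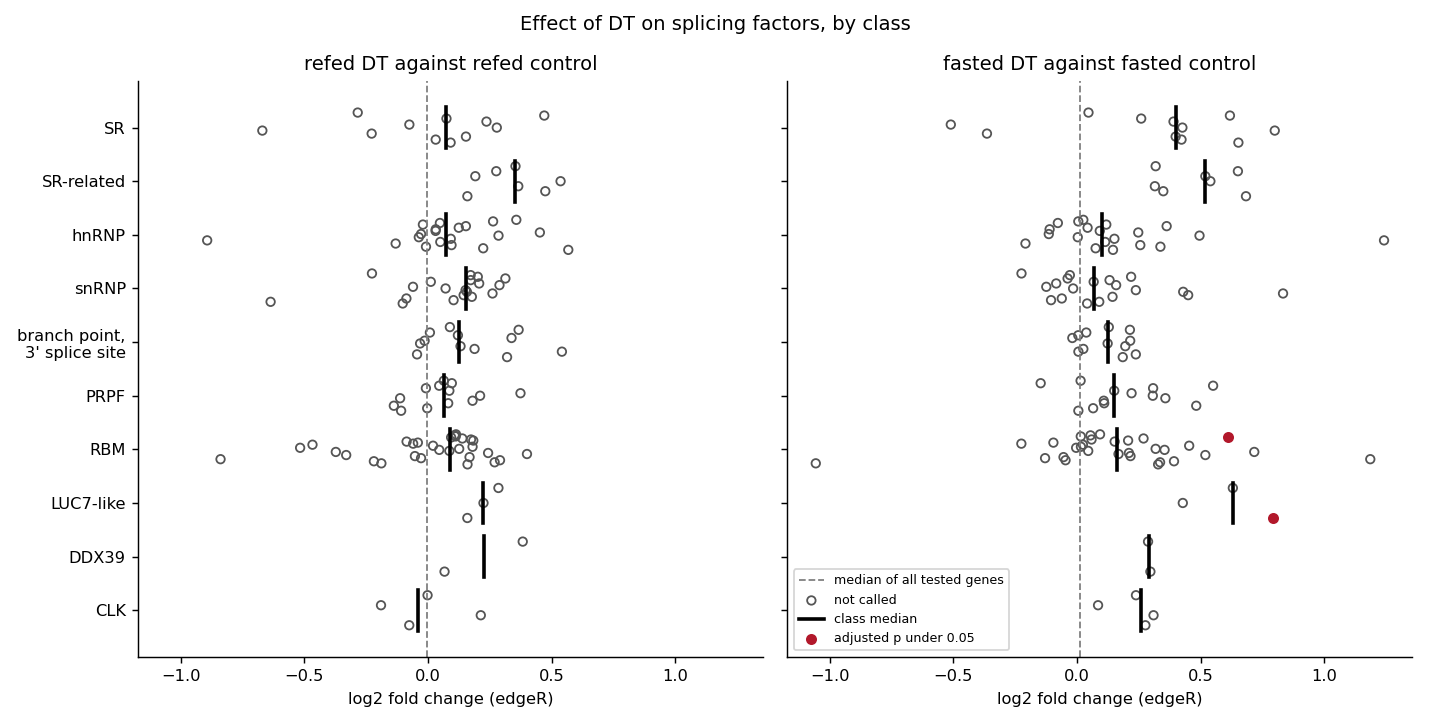
Log2 fold change (horizontal axis, edgeR) of the members in rows by class, for refed DT against refed control mice on the left and fasted DT against fasted control mice on the right. Filled points are called at an adjusted p under 0.05, black bars are class medians and the dashed line is the median of all tested genes; SR-related genes lie above 0 in both panels, in the refed panel with a median of 0.35 that is 0.09 without mouse 13, and the 2 called members, Luc7l and Rbm5, are in the fasted panel.

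The DT difference itself was not shown to depend on the feeding state. By edgeR, 0 members were called in the test of the difference between the DT effects, against 0.00711% of tested genes. At an unadjusted p under 0.05 there were 14, all with a smaller DT effect in refed mice, against 3.85% of tested genes in that direction. In the other direction there were 463 of 14064 tested genes. Without mice 13 and 20 there were 12 with a smaller and 3 with a larger effect in refed mice, against 5.45% and 7.03% of tested genes. In the fit of all libraries DESeq2 and limma voom called 0. The smallest p belonged to Rbm5 (difference −0.52 ± 0.15 on the log2 scale), Prpf4b (−0.51 ± 0.14) and Luc7l (−0.63 ± 0.18), each with an edgeR adjusted p from 0.510 to 0.523. Across the members, the fold changes in fasted and in refed mice, which share no library, had the same sign in 84, with a Pearson's r of −0.08 and a Spearman's rho of 0.19. Over all 14064 tested genes 56% had the same sign, against 69.4% of the members, with a Pearson's r of 0.16 and a Spearman's rho of 0.13. These are across genes, which are not independent replicates.

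By number of calls, refeeding gave larger lists than DT, for splicing factors and for all genes. The question was how β-cells respond to 2 h of food after a fast. In control mice 41 of 121 members (33.9%) were called by edgeR, against 23.3% of tested genes, with 33 up and 8 down after refeeding, where 10.9% and 12.3% of tested genes were called up and down. In DT mice 47 members (38.8%) were called, against 24.4% of tested genes, with 31 higher and 16 lower, where the background was 10.8% and 13.5%. Without mice 13 and 20 the counts were 51 in control mice (42 higher, 9 lower) and 56 in DT mice (43 higher, 13 lower). The background rose as well in that fit. Of 14295 tested genes 30.3% were called in control mice (2180 higher, 2145 lower) and 29.4% in DT mice (2292 higher, 1905 lower). The groups did not overlap for 34 higher and 7 lower members in control mice, against 10.4% and 11.1% of tested genes, and for 12 and 8 members in DT mice, against 4.0% and 6.11%. Without mice 13 and 20 the DT arm had 29 and 11 members, against 9.78% and 11.4%. Fold changes were above 0 in 79 members in control mice (47.0% of tested genes) and in 78 in DT mice (45.5% of tested genes). Median log2 fold changes were 0.19 for members and −0.04 for all tested genes in control mice, and 0.13 and −0.06 in DT mice.

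The direction of the background in DT mice depended on the processing. Of all tested genes called there, 44.4% were higher (1521 higher, 1905 lower), against 66% of the called members. With RLE scaling the shares were 51.6% (1755 and 1646) and 70.8%, with the stricter low-count filter 57.2% (2005 and 1503) and 74.0%, and without mouse 13 they were 54.6% (2403 and 1996) and 69.5%. In control mice 47.0% of the called genes and 80.5% of the called members were higher, with 48.6% and 85.0% under RLE scaling and 51.6% and 85.4% under the stricter filter.

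RNA of other cells and of cell stress differed between the same groups. All 11 tested acinar genes had a fold change above 0 in both arms, with medians of 1.29 in DT and 1.01 in control mice and 0 called. Their summed level was 69.9, 7666 and 31088 CPM as lowest, median and highest value in refed DT mice, against 93.6, 2154 and 17916 CPM in fasted DT mice. In control mice it was 1184, 11088 and 20297 CPM after refeeding, against 119, 4215 and 12471 CPM in the fast. With summed acinar RNA as a covariate 46 members were called in DT mice and 40 in control mice, against 22% and 21.3% of tested genes. Of the 10 stress genes, Hsph1, a heat shock protein, was called higher in both arms (2.45 in DT and 3.05 in control mice), and the immediate early genes Egr1 (−1.11 and −1.25) and Junb (−0.72 and −1.001) were called lower in both. Fosb was called lower in control mice (−0.93, edgeR adjusted p = 0.0261) and had −0.67 in DT mice (edgeR adjusted p = 0.0663). These 4 were named after their values were seen, and their part in the members' values was not tested.

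Both feeding comparisons called 29 members, 22 higher and 7 lower, and 0 in opposite directions. This was 70.7% of those called in control mice and 61.7% of those called in DT mice, where the shares over all tested genes were 62.7% and 59.9%. The comparisons share no library. Across the members the fold changes had a Pearson's r of 0.68 and a Spearman's rho of 0.73, against 0.61 and 0.66 over all tested genes, as a description across genes. Of the 18 called in DT mice only, all 18 had the same sign in control mice, and of the 12 called in control mice only, 9 had the same sign in DT mice. The same counts over all tested genes were not made, so these are no result particular to the members.

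**Figure D3:**
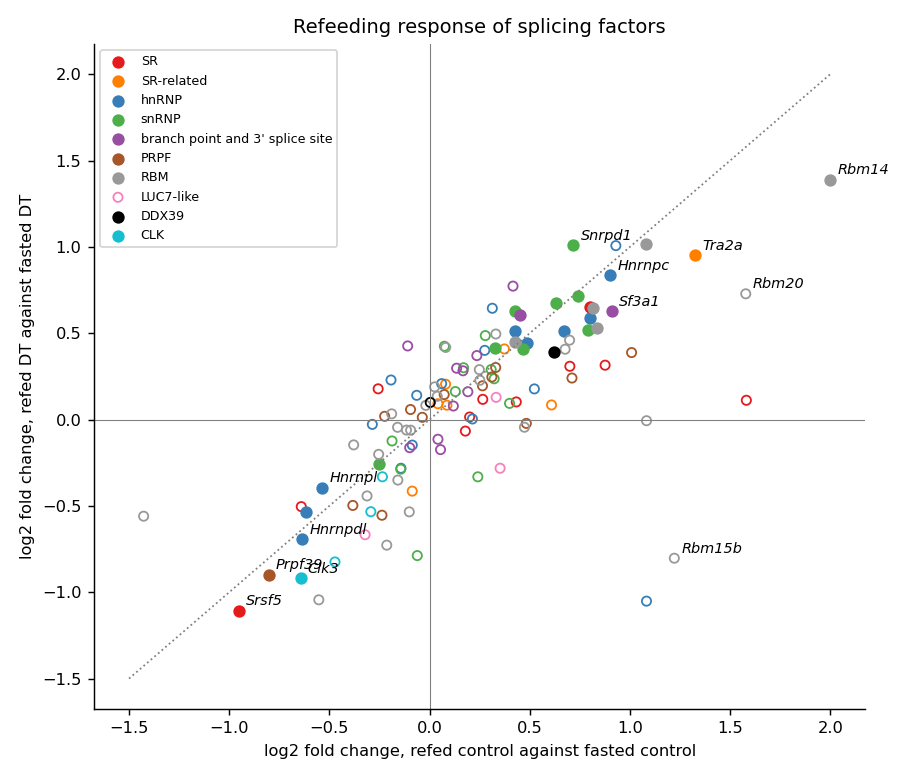
Log2 fold change of refed against fasted mice for the members, in control mice (horizontal axis) and in DT mice (vertical axis), coloured by class, with filled points for the 29 members called in both and a dotted line where both values are equal. Rbm14 is highest in both (2.00 and 1.39), and Srsf5, Prpf39, Clk3, Hnrnpdl and Hnrnpl lie at the lower left.

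The snRNP protein genes had more members called higher than lower after refeeding. Of 19 snRNP protein genes, 9 rose and 2 fell in DT mice, and 7 rose and 1 fell in control mice, with median fold changes of 0.30 and 0.31. That is 57.9% and 42.1% called, against 24.4% and 23.3% of tested genes. Of the 2 that fell in DT mice, Snrnp25 lost its call without mice 13 and 20 (−0.56, edgeR adjusted p = 0.0832). Sm proteins form the ring that is loaded onto snRNA in the cytoplasm, and Snrpb, Snrpd1, Snrpd2, Snrpd3 and Snrpg rose in both. Snrpd1 (chromosome 18, 10617796 to 10628230) had 15.1, 16.7 and 18.3 CPM in refed DT mice, against 6.19, 8.56 and 9.90 CPM in fasted DT mice, and 13.5, 16.9, 14.6, 12.2 and 15.3 CPM in refed control mice, against 10.2, 10.1, 6.96, 7.06 and 9.75 CPM in fasted control mice. Every refed mouse was above every fasted mouse in both arms. The fold change was 1.01 ± 0.13 in DT mice (edgeR adjusted p = 1.49e-05) and 0.72 ± 0.14 in control mice (edgeR adjusted p = 0.000959).

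Snrpd3 (chromosome 10, 75518042 to 75535440) had 36.4, 40.2 and 45.0 CPM in refed DT mice, against 23.1, 24.5 and 29.9 CPM in fasted DT mice, and 34.02, 36.7, 43.7, 29.9 and 35.8 CPM in refed control mice, against 22.5, 26.3, 19.3, 26.4 and 21.7 CPM in fasted control mice. The groups were again fully apart in both arms (0.67 ± 0.11 and 0.63 ± 0.12, edgeR adjusted p = 0.000115 and 0.000505). Snrpa, an RNA-binding protein of the U1 snRNP, and Snrpg, whose promoters hold a cAMP response element, rose by 0.52 ± 0.14 and 0.63 ± 0.13 in DT mice and by 0.79 ± 0.15 and 0.43 ± 0.14 in control mice. The call of Snrpb in control mice was lost without refed control mouse 18 or 22 or fasted control mouse 2, 3 or 4 (edgeR adjusted p of at most 0.104). The call of Snrpg in control mice was lost in 5 of 22 fits (without refed control mouse 12 or 22 or fasted control mouse 2, 3 or 5; highest adjusted p = 0.102). Snrpn was the exception among Sm genes. It had 25.9, 28.7 and 33.5 CPM in refed DT mice, against 30.8, 34.8 and 37.1 CPM in fasted DT mice, and 38.2, 33.1, 30.3, 34.6 and 33.9 CPM in refed control mice, against 40.0, 38.9, 42.8, 38.1 and 42.7 CPM in fasted control mice. Refed values were mostly the lower ones in both arms, with overlap (−0.25 ± 0.08 and −0.25 ± 0.09), and the calls were lost in 7 and 14 of 22 fits, with an edgeR adjusted p of at most 0.134 and 0.133. In DT mice this was without refed DT mouse 14, 15 or 20, fasted DT mouse 7, 8 or 9, or fasted control mouse 4, and also without mice 13 and 20 together (−0.21, edgeR adjusted p = 0.0604). In control mice it was without refed control mouse 18, 19, 21 or 22, any fasted control mouse, refed DT mouse 16 or 17, or fasted DT mouse 6, 7 or 8.

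Of the 12 branch point and 3' splice site factors, 6 rose in DT mice and 2 rose in control mice (edgeR). These were 50% and 16.7% of the class. Among tested genes 24.4% and 23.3% were called, 10.8% and 10.9% higher. Sf3a1, a U2 snRNP subunit (chromosome 11, 4160354 to 4182541), had 45.0, 52.7 and 59.1 CPM in refed DT mice, against 31.5, 32.9 and 39.4 CPM in fasted DT mice, and 48.9, 62.9, 45.9, 57.3 and 57.9 CPM in refed control mice, against 30.3, 31.7, 31.2, 27.3 and 24.9 CPM in fasted control mice. No refed mouse overlapped a fasted one (0.63 ± 0.10 in DT mice, edgeR adjusted p = 9.42e-05, and 0.91 ± 0.11 in control mice, edgeR adjusted p = 5.51e-06). U2af1 rose by 0.60 ± 0.11 in DT mice and by 0.45 ± 0.12 in control mice. Called in DT mice alone were Sf3b4 (0.77 ± 0.15), Sf1, which binds the branch point (0.37 ± 0.11), Sf3a3 (0.30 ± 0.09) and Sf3b5 (0.28 ± 0.10), but the difference between arms was not called for any of them. Sf3b5 lost its call in 13 of 22 fits (without refed DT mouse 14, 16, 17 or 20, refed control mouse 18 or 22, fasted DT mouse 6, 8, 9, 10 or 11, or fasted control mouse 1 or 3; edgeR adjusted p of at most 0.101), and without mice 13 and 20 (0.27, edgeR adjusted p = 0.0672).

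The hnRNP genes were split. In DT mice 6 rose and 4 fell, and in control mice 6 rose and 3 fell, of 20. The shares called were 50% and 45%, against 24.4% and 23.3% of tested genes. Hnrnpr, 1 of the 4 that fell in DT mice, lost its call without mice 13 and 20 (−0.21, edgeR adjusted p = 0.0517). Hnrnpc, which packages nascent transcripts by binding uridine runs (chromosome 14, 52073377 to 52104039), had 104, 146 and 170 CPM in refed DT mice, against 64.9, 81.1 and 90.9 CPM in fasted DT mice, and 150, 158, 126, 126 and 126 CPM in refed control mice, against 72.8, 82.5, 63.8, 68.9 and 79.4 CPM in fasted control mice. It was higher in every refed mouse of both arms (0.84 ± 0.11, edgeR adjusted p = 1.53e-05, and 0.90 ± 0.12, edgeR adjusted p = 2.07e-05). Hnrnpm rose by 0.59 ± 0.10 and 0.80 ± 0.11 and Hnrnpa3 by 0.51 ± 0.15 and 0.67 ± 0.16.

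Lower after refeeding in both arms were Hnrnpl, Hnrnpll and Hnrnpdl. Hnrnpl, a repressor and activator that binds CA repeats (chromosome 7, 28808546 to 28822268), had 63.2, 69.0 and 79.6 CPM in refed DT mice, against 73.6, 93.4 and 102 CPM in fasted DT mice, and 65.8, 66.2, 70.3, 71.1 and 69.4 CPM in refed control mice, against 104, 94.9, 109, 101 and 87.8 CPM in fasted control mice. The control groups were fully apart, and the DT groups overlapped (−0.39 ± 0.08 in DT and −0.54 ± 0.09 in control mice, edgeR adjusted p = 0.00114 and 0.000168). Its paralogue Hnrnpll, known for CD45 exon skipping in T cells, fell by 0.54 and 0.62, and Hnrnpdl by 0.69 and 0.63 on the log2 scale. The value of Hnrnpll in DT mice depended on mouse 13: it was −0.31 without it and −0.28 without mice 13 and 20, and still called (edgeR adjusted p = 0.0144).

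Of 11 SR genes, 1 rose and 1 fell in DT mice and 3 rose and 1 fell in control mice, and of 7 SR-related genes 2 rose in each arm. Called shares in DT and control mice were 18.2% and 36.4% of SR genes and 28.6% of SR-related genes in each. Among tested genes 24.4% and 23.3% were called, so that the SR share in DT mice was the lower one. Tra2a, an activator that binds purine-rich exonic enhancers (chromosome 6, 49243921 to 49264248), had 23.9, 33.9 and 47.8 CPM in refed DT mice, against 16.5, 17.03 and 20.8 CPM in fasted DT mice, and 28.5, 34.8, 26.7, 28.7 and 23.1 CPM in refed control mice, against 8.87, 9.72, 15.3, 13.3 and 9.37 CPM in fasted control mice. Refed and fasted mice did not overlap in either arm (0.95 ± 0.16, edgeR adjusted p = 0.000150, and 1.33 ± 0.17, edgeR adjusted p = 1.50e-05). Srsf5, another SR protein (chromosome 12, 80945495 to 80950507), moved the other way. It had 93.1, 119 and 209 CPM in refed DT mice, against 216, 277 and 361 CPM in fasted DT mice, and 92.3, 108, 101, 130 and 124 CPM in refed control mice, against 177, 229, 260, 207 and 205 CPM in fasted control mice. All refed values were below all fasted values of the same arm, and the 209 CPM came from mouse 13 (−1.11 ± 0.18, edgeR adjusted p = 0.000112, and −0.95 ± 0.19, edgeR adjusted p = 0.00101). Its fold change in DT mice was −1.33 without mice 13 and 20.

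Srsf3, a short SR protein, rose in both arms (0.65 ± 0.17 in DT and 0.80 ± 0.19 in control mice). Its value in DT mice was 0.93 without mice 13 and 20. Srsf1, the founding member of the family, and Srsf10 were called in control mice only, with 0.88 ± 0.16 and 0.70 ± 0.13 there and 0.31 ± 0.14 and 0.31 ± 0.12 in DT mice, and the difference between arms was not called. For Srsf10, refed DT mouse 13 had 20.2 CPM, against 31.8 to 34.03 CPM in the other refed DT mice. The feeding comparison in control mice and the DT comparison in fasted mice both use the 5 fasted control libraries. In these Srsf1 had 31.4, 40.7, 46.3, 48.4 and 29.0 CPM, below the 53.5, 61.7 and 72.6 CPM of fasted DT mice and the 64.8, 92.8, 66.2, 74.7 and 61.0 CPM of refed control mice, with 53.4, 78.1 and 89.0 CPM in refed DT mice. Fasted control mice were thus the low group for Srsf1, without overlap with any other.

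Of the CLK kinases, all 4 had fold changes below 0 in both arms, with medians of −0.68 in DT and −0.38 in control mice. Among tested genes 45.5% and 47.0% had a fold change above 0. Clk3 (chromosome 9, 57750621 to 57766235) had 16.9, 20 and 25.7 CPM in refed DT mice, against 29.8, 38.2 and 45.6 CPM in fasted DT mice, and 18.9, 19.2, 25.9, 29.0 and 25.1 CPM in refed control mice, against 34.2, 33.0, 44.1, 33.3 and 39.8 CPM in fasted control mice. Refed and fasted mice were apart in both arms, although exons of Edc3 on the other strand cover 15.2% of its exon bases (−0.92 ± 0.14, edgeR adjusted p = 5.75e-05, and −0.64 ± 0.15, edgeR adjusted p = 0.00311). Clk1 fell by 0.82 ± 0.20 and Clk4 by 0.53 ± 0.17 in DT mice, where Clk4 lost its call without fasted DT mouse 8 or refed DT mice 14 and 17 (adjusted p of at most 0.0732). In control mice Clk1 had −0.47 ± 0.22 and Clk4 −0.29 ± 0.18 and neither was called.

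RBM genes are a mixed class by function. Rbm14, a coactivator and paraspeckle protein (chromosome 19, 4800566 to 4811634), had the largest fold change of the members called in either arm. It had 23.8, 35.4 and 49.2 CPM in refed DT mice, against 9.42, 13.2 and 18.9 CPM in fasted DT mice, and 50.2, 37.3, 38.1, 48.7 and 34.7 CPM in refed control mice, against 11.4, 10.7, 7.10, 13.5 and 9.54 CPM in fasted control mice. No refed mouse overlapped a fasted mouse (1.39 ± 0.20, edgeR adjusted p = 4.05e-05, and 2.00 ± 0.22, edgeR adjusted p = 3.33e-06). Exons of Gm21992 on the same strand and of Gm21844 on the other strand cover 21% of its exon bases, so that reads could be shared. Rbm12, Rbm28, Rbm10 and Rbm8a also rose in both arms, by 1.01 ± 0.21, 0.53 ± 0.12, 0.65 ± 0.13 and 0.45 ± 0.11 in DT mice and by 1.08 ± 0.23, 0.84 ± 0.14, 0.81 ± 0.14 and 0.43 ± 0.12 in control mice. Rbm12 had 1.27 in DT mice without mice 13 and 20. Rbm20, best known for titin splicing in heart, was called in control mice alone (1.58 ± 0.30; 0.73 ± 0.27 in DT mice, edgeR adjusted p = 0.05001), with 5.87, 4.91, 3.70, 4.996 and 7.90 CPM in refed control mice, against 2.12, 0.989, 2.17, 1.279 and 2.54 CPM in fasted control mice.

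**Figure D4:**
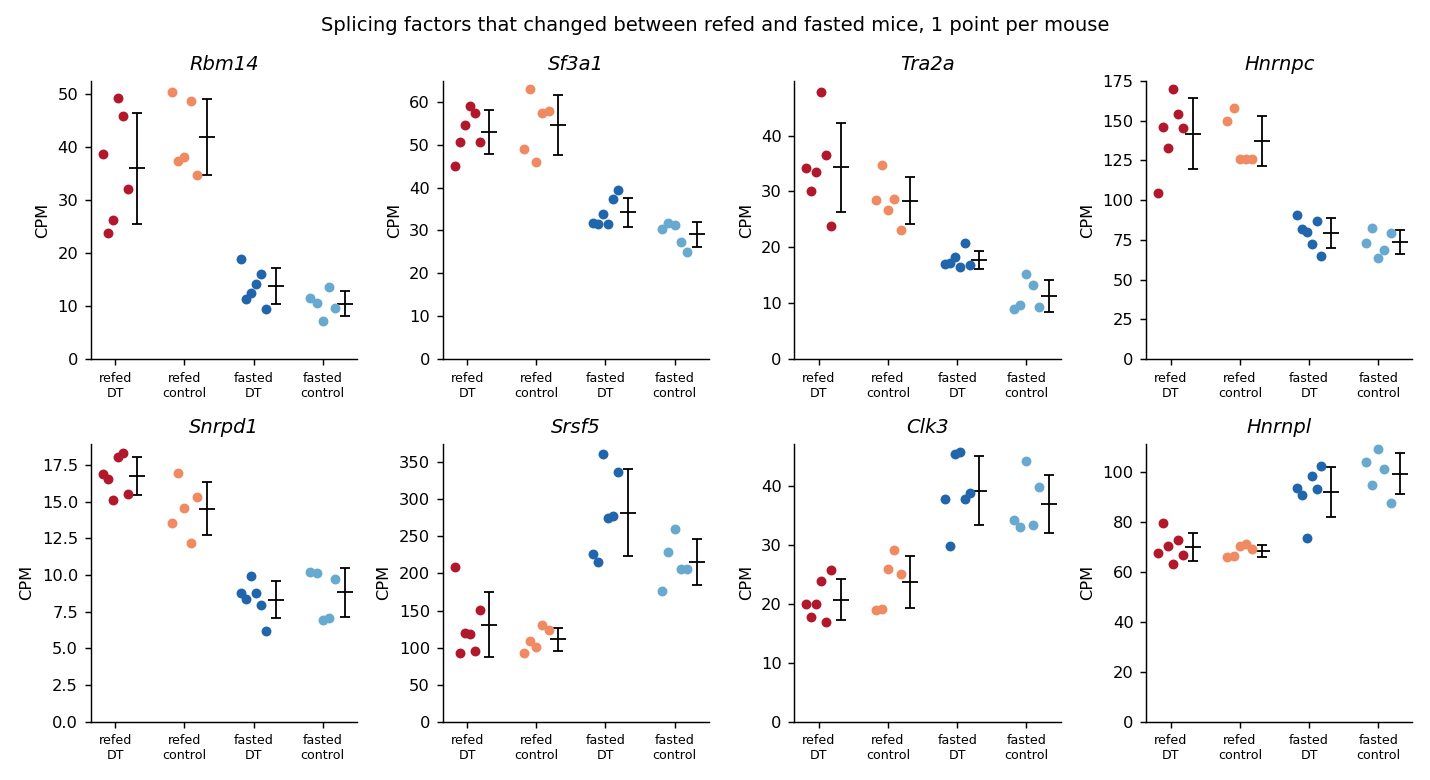
CPM (vertical axis, from 0) of 8 members in each of the 22 mice, with a black mark for the mean and SD of each group, for refed DT, refed control, fasted DT and fasted control mice. Rbm14, Sf3a1, Tra2a, Hnrnpc and Snrpd1 are higher in every refed mouse than in any fasted mouse of the same arm, Srsf5 and Clk3 are lower in every refed mouse, and Hnrnpl overlaps in DT mice.

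Among PRPF genes, Prpf39, a U1 snRNP partner, fell in both arms (−0.90 ± 0.17 in DT and −0.80 ± 0.19 in control mice). Prpf3, Prpf38b and Prpf4b rose in control mice and were not called in DT mice (1.01 ± 0.23, 0.71 ± 0.12 and 0.48 ± 0.11). Prpf18 and Prpf40b fell in DT mice (−0.50 ± 0.16 and −0.55 ± 0.14) and were not called in control mice, and the difference between arms was not called for these 5 genes. Prpf18 had −0.28 without refed DT mouse 13 and −0.26 without mice 13 and 20, where its call was lost (edgeR adjusted p = 0.0833), as it was without fasted DT mouse 11 or fasted control mouse 4 (edgeR adjusted p of at most 0.0583). The helicase Ddx39a rose in both arms (0.39 ± 0.12 and 0.62 ± 0.13), while Ddx39b had 0.10 ± 0.08 and 0.00 ± 0.09, the sign of the second value changing with single libraries. Ddx39a lost its call in DT mice without fasted DT mouse 10 (edgeR adjusted p = 0.0522). Luc7l3 fell in DT mice (−0.67 ± 0.21) and lost its call without fasted DT mouse 8 or refed DT mice 14, 15 and 17 (edgeR adjusted p of at most 0.0559). With mice 13 and 20 left out it had −0.92 (edgeR adjusted p = 0.000137).

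Of 114 further genes of splicing outside the pattern, 22 rose and 9 fell in DT mice and 23 rose and 10 fell in control mice by edgeR after refeeding. The called share was 27.2% in DT mice, against 24.4% of tested genes, and 28.9% in control mice, against 23.3%. The share called higher was 19.3% in DT and 20.2% in control mice, and the share called lower was 7.89% and 8.77%, where 13.5% and 12.3% of tested genes were lower. Cirbp, a cold-inducible RNA-binding protein, had 42.5, 55.6 and 76.3 CPM in refed DT mice, against 106, 159 and 229 CPM in fasted DT mice, and 50.1, 36.6, 52.3, 49.5 and 72.7 CPM in refed control mice, against 222, 181, 208, 162 and 216 CPM in fasted control mice. All refed mice were below all fasted mice of the same arm (−1.59 ± 0.18 and −1.92 ± 0.20). Its close relative among the members, Rbm3, was not called, with 22.6, 33.4 and 49.4 CPM in refed DT mice, against 30.1, 45.9 and 53.1 CPM in fasted DT mice, and 25.1, 30.3, 32, 35.1 and 34.9 CPM in refed control mice, against 35.5, 41.3, 36.1, 34.5 and 28.2 CPM in fasted control mice. Rbfox3, a neuronal regulator, fell by 1.79 ± 0.35 and 3.06 ± 0.40, and the RNA-binding protein Syncrip rose by 0.97 ± 0.14 and 1.05 ± 0.15. The tri-snRNP protein Txnl4a rose by 1.02 ± 0.15 and 1.02 ± 0.16 in DT and control mice.

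Some members varied so widely between mice of the same group that no comparison could resolve them. The standard deviation of log2 CPM within groups had a median of 0.24 over the members, against 0.39 over all tested genes, and it exceeded 1 in 8 members (6.61%, against 12.6% of tested genes). The 8 were Srsf2, Rbm45, Hnrnpd, Hnrnpab, Srsf9, Rbm15b, Rbm11 and Rbm41. They were chosen for description after their values were seen. Rbm11 and Rbm41 had averages of 0.545 and 0.565 CPM, where few reads were counted.

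Srsf2, Srsf9, Hnrnpd, Hnrnpab and Rbm15b tended to be high in the same mice and low in the same mice. The exons of Srsf2 and Hnrnpab overlap genes on the other strand over 25.3% and 29.1% of their bases. Srsf2, an SR protein of exonic enhancers (chromosome 11, 116849897 to 116853675), had 11.6, 28.8 and 120 CPM as lowest, median and highest value in refed DT mice, 41.2, 127, 108, 10.6 and 32.9 CPM in refed control mice, 7.37, 33.7 and 71.1 CPM in fasted DT mice and 24.4, 52.4, 21.6, 4.97 and 3.87 CPM in fasted control mice. Hnrnpd, also known as AUF1 (chromosome 5, 99955935 to 99979130), had 5.28, 8.00 and 30.2 CPM in refed DT mice, 8.41, 49.3, 51.2, 5.23 and 8.16 CPM in refed control mice, 5.40, 24.9 and 56.3 CPM in fasted DT mice and 18.1, 23.1, 7.54, 3.46 and 5.75 CPM in fasted control mice. Refed control mice 18 and 19 were high and mouse 21 low for both genes. All 4 groups overlapped.

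These 5 genes have a GC-rich start: 67% of the first 300 bases of the longest coding transcript of Srsf2 are G or C, 76.0% for Srsf9, 68.3% for Hnrnpd, 73.0% for Hnrnpab and 68.7% for Rbm15b, against a median of 60.0% over 120 members. Of the 29 members with a share at least as high as that of Srsf2, 6 had a standard deviation within groups over 1 and 23 did not. The 6 were these 5 genes and Rbm45 (68.7% and a standard deviation of 1.42). Among the 23 were Clk2 (78.3% and a standard deviation of 0.36), Hnrnpa0 (76.7% and 0.49) and Hnrnpdl (75.7% and 0.23). A GC index was therefore computed for each library, as the mean log2 CPM of 1144 other tested genes with the highest GC share (above 74%) minus that of 1219 genes with 59% to 61.3%, centred over the 22 mice. Of the 5 genes only Srsf9 has a share in that highest range. It ran from −0.66 to 0.42 in refed DT, from −0.34 to 0.56 in refed control, from −0.95 to 0.61 in fasted DT and from −0.64 to 0.38 in fasted control mice. In fasted DT mice 6, 7 and 8 the index was −0.58, −0.82 and −0.95, and Srsf9 had 9.23, 8.39 and 5.45 CPM. In fasted DT mice 9, 10 and 11 the index was 0.47, 0.60 and 0.61, and Srsf9 had 56.1, 58.9 and 61.4 CPM. Mice with a high index thus had high levels of these members in each group. With the index as a covariate the members called were 2 in fasted mice, 0 in refed mice and 4 on average between DT and control mice, where Rbm5 was no longer called (edgeR adjusted p = 0.0508), and 53 and 41 between refed and fasted DT and control mice. In the same order, 0.0213%, 0.0356%, 0.178%, 27.7% and 25.6% of tested genes were called with the covariate. The labels name no batch, and why the libraries differ in this index was not tested.

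**Figure D5:**
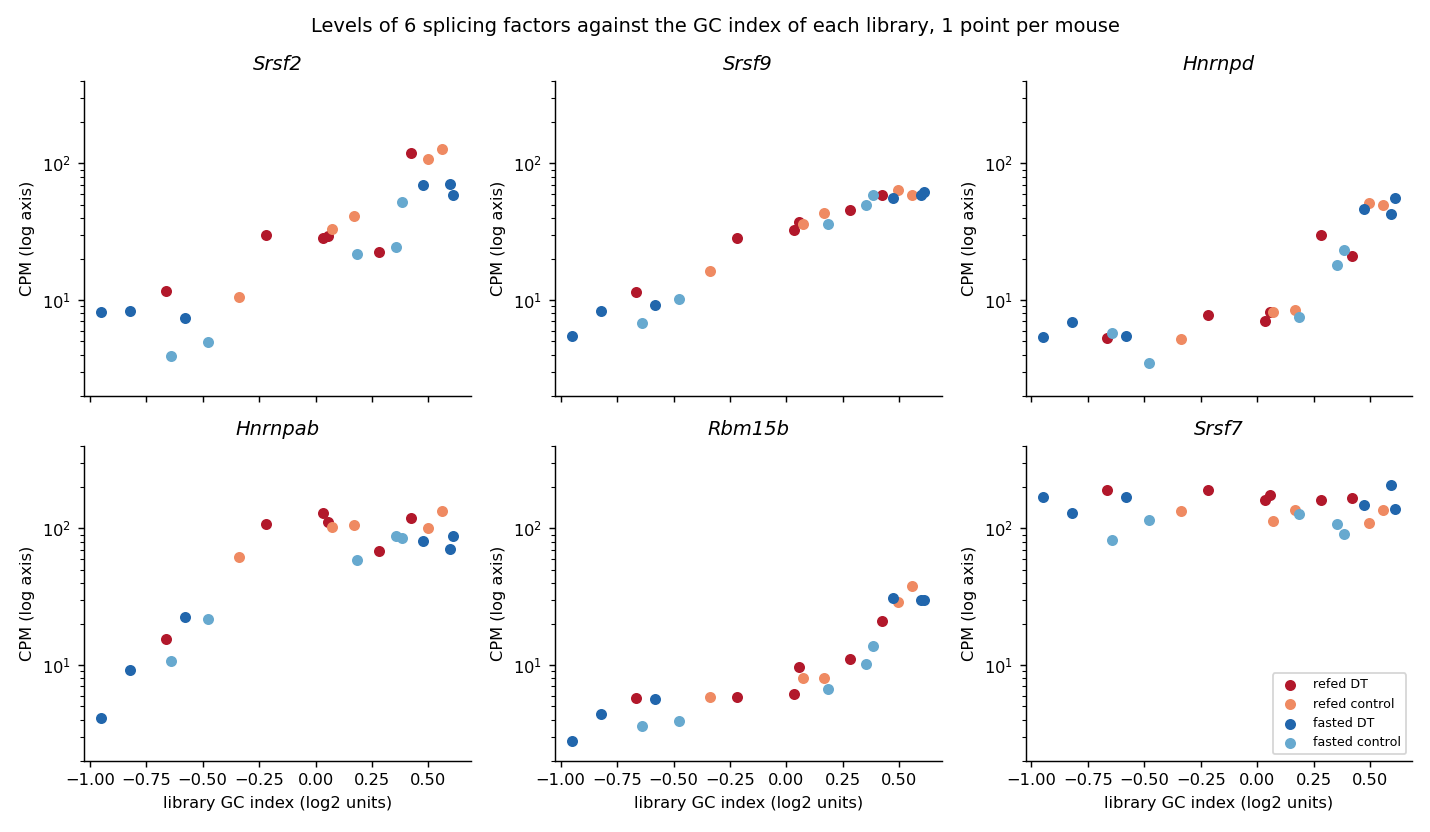
CPM (vertical log axis) of Srsf2, Srsf9, Hnrnpd, Hnrnpab, Rbm15b and Srsf7 against the GC index of each library (horizontal axis, log2 units), with 1 point per mouse coloured by group. The first 5 genes are low in libraries with a low index and high in those with a high index, Srsf9 from 5.45 to 63.9 CPM, while Srsf7 stays between 82.7 and 209 CPM along the whole axis.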

How the data were processed

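Bulk RNA-seq was analysed in 22 libraries of FAC-sorted β-cells, each from a different mouse. The authors deposited raw read counts per gene. Per the submitters' processing notes, STAR 2.7.2b, HTSeq 0.9.1, DESeq2 1.28.1 and the build GRCm38.p6 were used; the settings, the strand option and the annotation release are not given in the sources used here. Of the table's columns, 0 belonged to no sample.

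Genes were kept with edgeR's filterByExpr and counts were fitted over the 4 groups with TMM scaling and edgeR 4.0.16's robust quasi-likelihood test (limma 3.58.1, R 4.3.3), adjusted by Benjamini-Hochberg over all 14064 tested genes. CPM were computed with TMM-scaled library sizes. P-values set the differences between groups against the spread between mice. Alternatives were RLE scaling, other filters, DESeq2 1.42.0, limma voom, leaving out libraries, covariates, and the insulin genes left out. The fit was tested on simulated data. Annotations came from GENCODE M21 and RefSeq.

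The members and lists were chosen with earlier results of these data known. Named genes were all called members, up to 25 by smallest p per comparison, the 2 with the smallest p per class, and the most and least abundant of each class. The GC covariate and the description of genes with a wide spread within groups were chosen after seeing the data.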

Additional observations from a re-analysis of the deposited data

Results flagged for a closer look

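Of 228 groups of mice, for 57 described members, 13 (5.70%) held 1 mouse whose level lay far from the others; chance gives about 1 in 20. Refed DT mouse 13 accounted for 4. It had 212 CPM of Srrm1, against 68.9 to 104 CPM in the other refed DT mice, and 52.9 CPM of Luc7l3, against 17.9 to 26.3 CPM. The same mouse was lowest for Srsf10, at 20.2 CPM against 31.8 to 34.03 CPM, and for Hnrnph2, at 27.8 CPM against 39.4 to 45.5 CPM. This library also had the highest insulin share and the highest level of nuclear RNAs, and TMM scaling raised all its CPM. The part of these in the levels above was not tested. Refed DT mouse 14 had 31.4 CPM of Prpf39, against 23.5 to 26.2 CPM.

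In fasted DT mice, mouse 8 was highest for Clk4, at 74.5 CPM against 47.3 to 51.6 CPM in the others, and for Srsf11, at 119 CPM against 93.1 to 100.1 CPM. Mouse 10 had 107 CPM of Rbm5, against 74.5 to 86.6 CPM.

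In refed control mice, mouse 12 was lowest for Hnrnpa2b1, at 252 CPM against 319 to 326 CPM, and mouse 18 highest for Sf1, at 108 CPM against 97.6 to 100.5 CPM. Among fasted control mice, mouse 3 was highest for Luc7l, at 66.4 CPM against 44.7 to 50.6 CPM, and lowest for Hnrnph2, at 25.5 CPM against 31.3 to 33.3 CPM. Mouse 4 had 40.96 CPM of Rbm10, against 30.7 to 33.0 CPM.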

How the results depend on the processing

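No paired analysis was possible because the groups share no replicate numbers. Members called between fasted DT and fasted control mice numbered 2, against 9 with DESeq2, 7 without refed DT mice 13 and 20, and 0 both with no low-count filter and with only the 2 groups compared. Of tested genes 0.389% were called with DESeq2 and 0.182% without mice 13 and 20. Between refed DT and refed control mice the count was 0, against 2 with DESeq2 (0.629% of tested genes) and 2 without mice 13 and 20 (1.22%). On average it was 5, against 12 with DESeq2 (11 higher, 1 lower), 11 without mice 13 and 20 and 1 with no filter. The shares of tested genes called were 1.21%, 0.86% and 0.0285% in these fits. Leaving out single libraries gave 0 to 5 in fasted mice, 0 to 0 in refed mice, 1 to 6 on average, 41 to 59 for refeeding in DT mice, 35 to 52 in control mice and 0 to 0 for the difference. In these fits the share of tested genes called ran from 20.6% to 31.2% for refeeding in DT mice and from 18.4% to 30% in control mice. It was at most 0.135% in fasted mice, 0.371% in refed mice, 0.492% on average and 0.0142% for the difference. Median fold changes stayed within 0.13 to 0.19, 0.09 to 0.14, 0.12 to 0.16, 0.11 to 0.21 and 0.17 to 0.23 in the same order, and −0.08 to −0.02 for the difference.

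For named genes, 4250 values kept their direction and side of the threshold, 97 lost the call, 43 gained it and 12 changed sign. The sign changed between refed DT and refed control mice for Clk2 (−0.10) and Luc7l3 (−0.028) without mice 13 and 20, for Luc7l3 without mouse 13 (−0.0146, over a range up to 0.38 when other single mice were left out) and for Ddx39a without refed control mouse 12 (−0.00135). For Ddx39b after refeeding in control mice (0.004), 8 fits that left out 1 library changed the sign, over a range of −0.0204 to 0.0371 when each library was left out. The causes were not tested. Depth limits Rbm11 and Rbm41. With 5 and 6 mice a group, small differences may go uncalled. Counts per gene do not separate isoforms.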
